A study of Mus musculus with 4 samples.

Results

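Pou5f1, Dppa2, Nr2e1, Foxc2 and Aff3 encode nuclear proteins known from pluripotent or tissue stem cells, and each was measured in Sox2 reporter-positive cells sorted from the mouse testis. The genes were chosen from the comparison that the authors deposited, by symbol, accession or full name, without use of its fold or p columns. This gave 6 probe sets for 5 genes, out of 218 genes that could be named in that table: 2 for Nr2e1 and 1 for each of the others. The table itself lists only probe sets that the authors had selected for a difference of at least 2-fold between the same populations on the same 4 arrays, and the genes were also grouped with earlier results of these data known. The values below are therefore a description of how far and how evenly the 5 genes differ, and limma's calls for them are counted below without being read as evidence of a difference.

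The populations were Sox2GFP+ckit- cells and Sox2GFP+ckit+ cells (ckit- and ckit+ cells below) from 2-week-old mice on a mixed 129SvJae/BL6 background. All of the mice carry a fluorescent reporter (GFP) of the Sox2 gene, and both populations were reporter-positive. They differ in ckit at the cell surface, a receptor tyrosine kinase that appears on spermatogonia as they differentiate. Per the labels, the ckit- cells can rebuild damaged tubules and the ckit+ cells cannot. Each population was measured on 2 one-colour arrays, called biological replicates 1 and 2 in the labels, and each array held RNA from a pool of 20 testes (20000 to 90000 sorted cells, 5 ng of RNA amplified), so animals cannot be told apart within an array.

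The male germ line of the young testis is kept up by undifferentiated spermatogonia, a small part of which acts as stem cells, and retinoic acid turns their progeny into Kit-expressing differentiating spermatogonia. Pou5f1 (Oct4) is the core transcription factor of pluripotent cells and persists in the germ line in primordial germ cells and undifferentiated spermatogonia. Dppa2 works with its partner Dppa4 on the promoters of developmental and early embryonic genes in mouse embryonic stem cells. Nr2e1 (Tlx) is an orphan nuclear receptor that represses transcription and keeps neural stem cells of the mouse brain dividing. Foxc2 is a forkhead transcription factor of mesenchyme and lymphatic vessels, also known from a rare class of undifferentiated spermatogonia in the mouse. Aff3 belongs to the AF4/FMR2 family, whose members form the scaffold of complexes that release paused RNA polymerase.

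All 5 genes had higher values in ckit- cells, and all 6 probe sets had both ckit- arrays above both ckit+ arrays. The log2 differences (ckit- minus ckit+) ran from 0.91 for the dimmer Nr2e1 probe set to 3.42 for the brighter one, and their median was 1.74, against 0.00 over all 45037 probe sets. Across all probe sets, 24.2% separated the arrays in this direction and 1.05% had a difference of 0.91 or more. With limma, which fits all probe sets together and shares their spread, 3 of the 6 member probe sets had a Benjamini-Hochberg adjusted p under 0.05 (those of Foxc2 and Aff3 and the brighter one of Nr2e1), where 0.193% of all probe sets were called higher in ckit- cells and 0.309% were called in either direction. The count was 0 with the methods' t-test on the RMA values, adjusted here over all 45037 probe sets. It was 4 with an intensity trend and 5 with the replicate number as a block. In these settings 1, 419 and 554 of all 45037 probe sets were called in either direction. Since the deposited table was selected on this contrast, nothing is read from these counts. In bulk samples such as these, fewer cells of a type and less RNA per cell cannot be told apart.

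**Figure D1:**
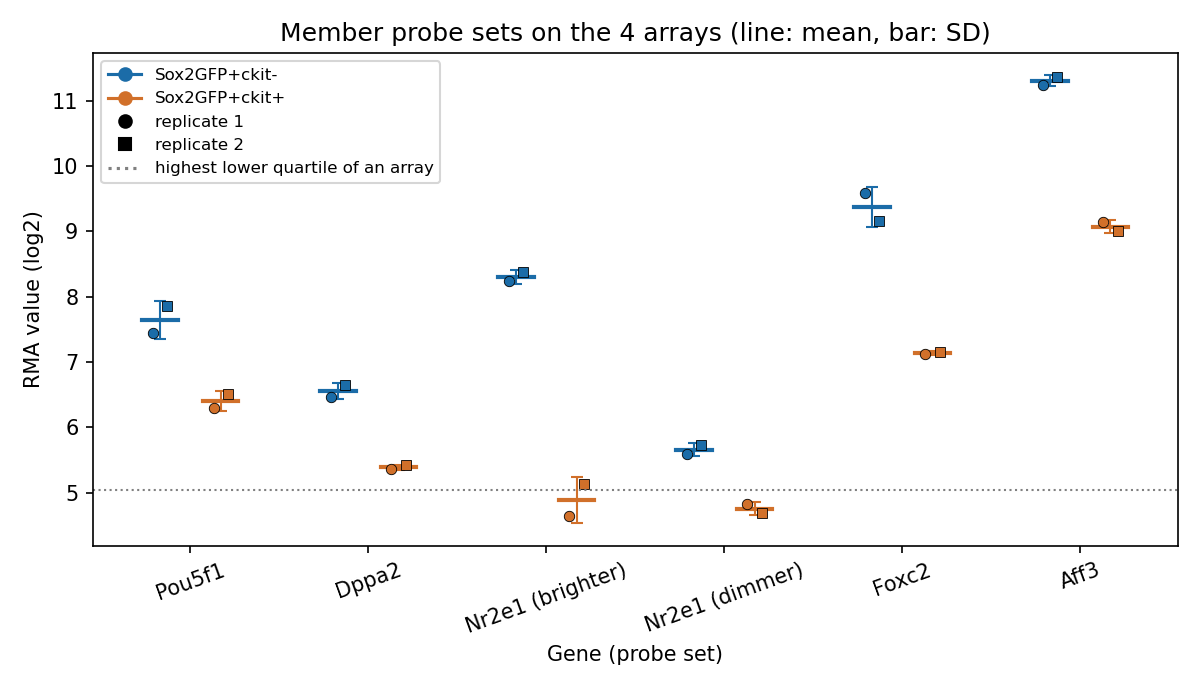
RMA values on the log2 scale (vertical axis) of the 6 probe sets of the 5 genes (horizontal axis) on the 2 ckit- and 2 ckit+ arrays, with group means as lines and SD as bars. In each probe set both ckit- arrays lie above both ckit+ arrays, and the ckit+ means of Nr2e1 lie below the dotted line, drawn at the lower quartile of the array where it was highest (5.04).

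The brighter Nr2e1 probe set had the highest measured log2 difference of all 45037 probe sets, with a dim signal in ckit+ cells. It read 8.23 and 8.38 in ckit- cells, against 4.63 and 5.14 in ckit+ cells (log2 RMA values, replicates 1 and 2). The ckit- arrays were close to each other, the ckit+ arrays lay further apart, and the lowest ckit- array exceeded the highest ckit+ array by 3.10. The means were 8.31 ± 0.11 in ckit- cells and 4.88 ± 0.35 in ckit+ cells (SD, n = 2 each), a difference of 3.42 ± 0.21 (limma's SE). The ckit+ mean lay under the lower quartile of each array's values (5.04 on the array where it was highest). Values this dim may hold little but background, so no fold is given, and the measured difference may understate the difference in transcript. The dimmer probe set read 5.58 and 5.73 in ckit- cells, against 4.82 and 4.68 in ckit+ cells. Its groups did not overlap either, with a measured difference of 0.91 ± 0.17, and both its ckit+ values lay under the same quartile. Both probe sets therefore placed Nr2e1 higher in ckit- cells and near the dim end of the arrays in ckit+ cells, and for that reason their measured sizes are not set against each other. The sources used here do not say which part of the transcript each probe set reads.

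The promoter of Nr2e1 is shown because its gene has the largest measured difference, with the only motif match in capitals. The sequence covers 250 bases before to 50 bases after the gene's start in RefSeq (GRCm38.p6, chr10:42583541-42583840, minus strand), written 5′ to 3′.
Nr2e1 promoter: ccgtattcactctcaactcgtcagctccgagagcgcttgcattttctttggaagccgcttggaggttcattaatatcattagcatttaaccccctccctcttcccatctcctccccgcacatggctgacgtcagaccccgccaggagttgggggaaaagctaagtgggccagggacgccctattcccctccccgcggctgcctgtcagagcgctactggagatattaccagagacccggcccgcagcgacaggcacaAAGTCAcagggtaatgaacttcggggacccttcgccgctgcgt
The capitals mark AAGTCA, the core motif that Nr2e1 itself is known to bind, at positions 8 to 13 counted from 1 at the start. This motif was found in 15.1% of 32817 RefSeq promoters of the same length on either strand, so its presence is common.

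Foxc2 and Aff3 followed with nearly equal differences, in places 17 and 18 among all probe sets. Foxc2 read 9.59 and 9.16 in ckit- cells, against 7.12 and 7.15 in ckit+ cells. It was 4.72-fold higher in ckit- cells (2.24 ± 0.20 on the log2 scale), with the ckit- arrays 0.43 apart and the ckit+ arrays 0.04 apart. Aff3 read 11.25 and 11.36 in ckit- cells, against 9.14 and 9.00 in ckit+ cells. It was 4.71-fold higher (2.24 ± 0.16 on the log2 scale), and the smallest gap between the populations, 2.11, was 15.0 times the larger gap within one of them. For Foxc2 this ratio was 4.63. Aff3 was thus the member whose separation was widest relative to the spread of its replicates.

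Foxc2 had no promoter in the reference table. That of Aff3 is shown for its base composition (GRCm38.p6, chr1:38627195-38627494, minus strand, 5′ to 3′).
Aff3 promoter: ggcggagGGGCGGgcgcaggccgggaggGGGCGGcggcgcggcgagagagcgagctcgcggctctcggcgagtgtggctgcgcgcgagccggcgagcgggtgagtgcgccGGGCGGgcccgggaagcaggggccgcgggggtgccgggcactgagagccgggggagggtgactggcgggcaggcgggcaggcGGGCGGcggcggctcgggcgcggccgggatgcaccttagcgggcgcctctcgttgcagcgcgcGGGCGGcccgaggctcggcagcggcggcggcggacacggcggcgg
It is 83.3% G and C with 54 CpG sites, more than in 99.7% of the promoters, whose median was 7.0. The capitals mark 5 matches to GGGCGG, the core of sites for Sp1, a motif held by 35.6% of the promoters.

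Pou5f1 and Dppa2, the members known from pluripotent cells, had differences close to each other and smaller than those of Foxc2 and Aff3. Pou5f1 read 7.44 and 7.85 in ckit- cells, against 6.29 and 6.51 in ckit+ cells. The value was 2.37-fold higher in ckit- cells (1.25 ± 0.20 on the log2 scale), and the ckit- arrays were 0.41 apart. The gap between the populations was 2.26 times the larger gap within one, the lowest such ratio among the 6 probe sets in the RMA values. Dppa2 read 6.46 and 6.64 in ckit- cells, against 5.35 and 5.42 in ckit+ cells, and was 2.25-fold higher in ckit- cells (1.17 ± 0.16 on the log2 scale). Its replicates lay close together, and the gap between the populations was 5.92 times the larger gap within one. The Dppa2 probe set carries the manufacturer's suffix for probes shared by several transcripts, so other transcripts may add to it. Neither of these probe sets passed in limma's fit.

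The promoter of Pou5f1 is shown at the first of its 2 start sites in the table (GRCm38.p6, chr17:35505782-35506081, plus strand, 5′ to 3′), with 2 motif matches in capitals.
Pou5f1 promoter: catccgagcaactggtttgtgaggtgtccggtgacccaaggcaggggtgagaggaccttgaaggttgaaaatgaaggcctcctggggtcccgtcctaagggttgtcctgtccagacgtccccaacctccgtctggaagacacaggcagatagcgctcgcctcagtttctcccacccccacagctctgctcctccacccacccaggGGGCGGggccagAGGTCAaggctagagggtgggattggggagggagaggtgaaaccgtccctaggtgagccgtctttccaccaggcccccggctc
They are GGGCGG at positions -45 to -40 and AGGTCA, the core motif of many nuclear receptors found in 16.3% of the promoters, at -33 to -28. The window at the other start site held 1 match to ACAATGG, a motif of SOX proteins found in 3.67% of the promoters, and 1 to AAGTCA. The other motifs searched on both strands were ATGCAAA (the first bases of the octamer), ACAAAGG (SOX), GTAAACA (forkhead), CCGGAAG (ETS) and TATAAA, none of which was in any of these windows, and 0 of the matches found overlapped. A match describes these letters only and shows no binding.

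The members were also set beside probe sets of like signal level. Among probe sets of like mean level, the log2 difference that 0.5% exceeded was 1.25 for Nr2e1's brighter probe set, 1.36 for Foxc2 and 1.08 for Aff3, and these members lay above it. Pou5f1 lay at this bound, with 1.25 against 1.25. Dppa2 lay under it with 1.17 against 1.32, as did the dimmer Nr2e1 probe set with 0.91 against 1.09. The median difference varied with level between members by little, from -0.14 at the level of Foxc2 to 0.11 at that of the dimmer Nr2e1 probe set.

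**Figure D2:**
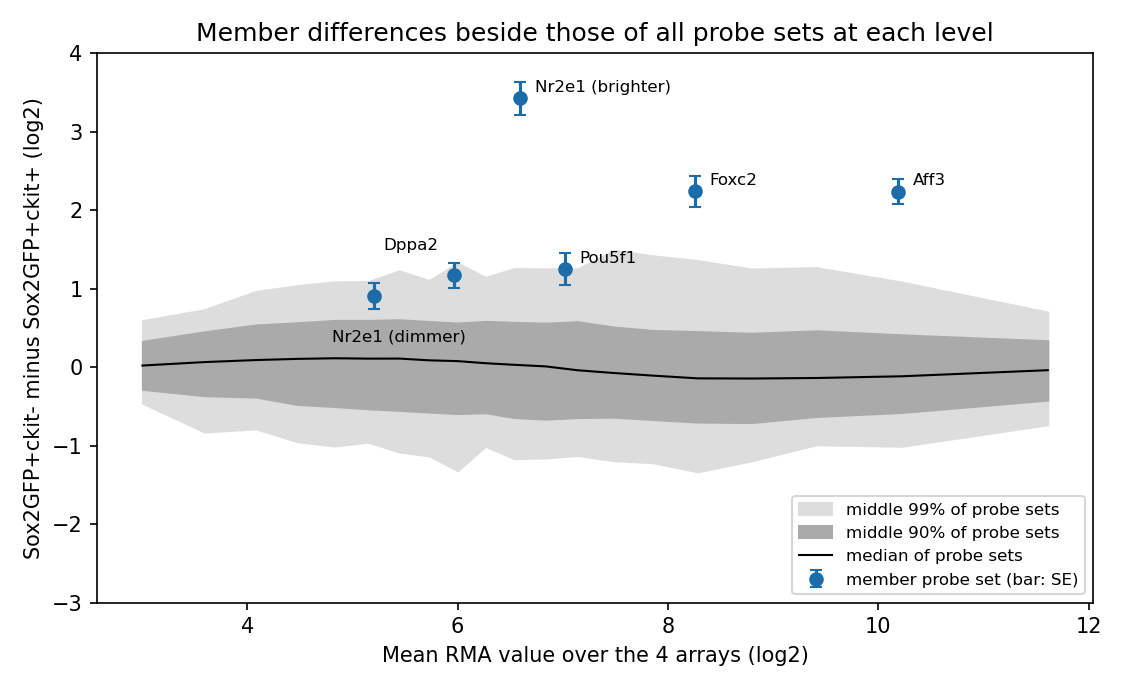
Log2 difference (ckit- minus ckit+, vertical axis) against the mean RMA value over the 4 arrays (log2, horizontal axis). Points are the member probe sets with limma's SE, and the bands hold the middle 99% and 90% of all probe sets in 20 bins of level. Nr2e1 at 3.42, Foxc2 at 2.24 and Aff3 at 2.24 lie above the bands, and the other 3 probe sets lie in the upper part of the outer band.

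The deposited table gives group means that are not those of the RMA table. The brighter Nr2e1 probe set, Aff3 and Foxc2 led the members in both, while the order among the other 3 probe sets, and that of Aff3 and Foxc2, differed. In the authors' deposited table the ratio of ckit- over ckit+ was 9.41 for the brighter Nr2e1 probe set, in place 1 of 196 probe sets higher in ckit- cells. The authors' deposited table gave ratios of 5.06 for Aff3 and 4.64 for Foxc2, in places 8 and 12. The ratios of Dppa2, the dimmer Nr2e1 probe set and Pou5f1 in the authors' deposited table were 2.53, 2.31 and 2.26, in places 107, 131 and 141, and the lowest ratio listed was 2.00. The dimmer Nr2e1 probe set was the member that differed most between the sources, with 1.21 on the log2 scale in the authors' deposited table against 0.91 in the RMA values, which is under 2-fold. Dppa2 exceeded Pou5f1 in the authors' deposited table, and Pou5f1 exceeded Dppa2 in the RMA values, so their order is not settled. The spread of their ckit- replicates changed order too. In the authors' deposited table the SEM was 0.08 for Pou5f1 and 0.15 for Dppa2, while in the RMA values the SD was 0.29 and 0.13.

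**Figure D3:**
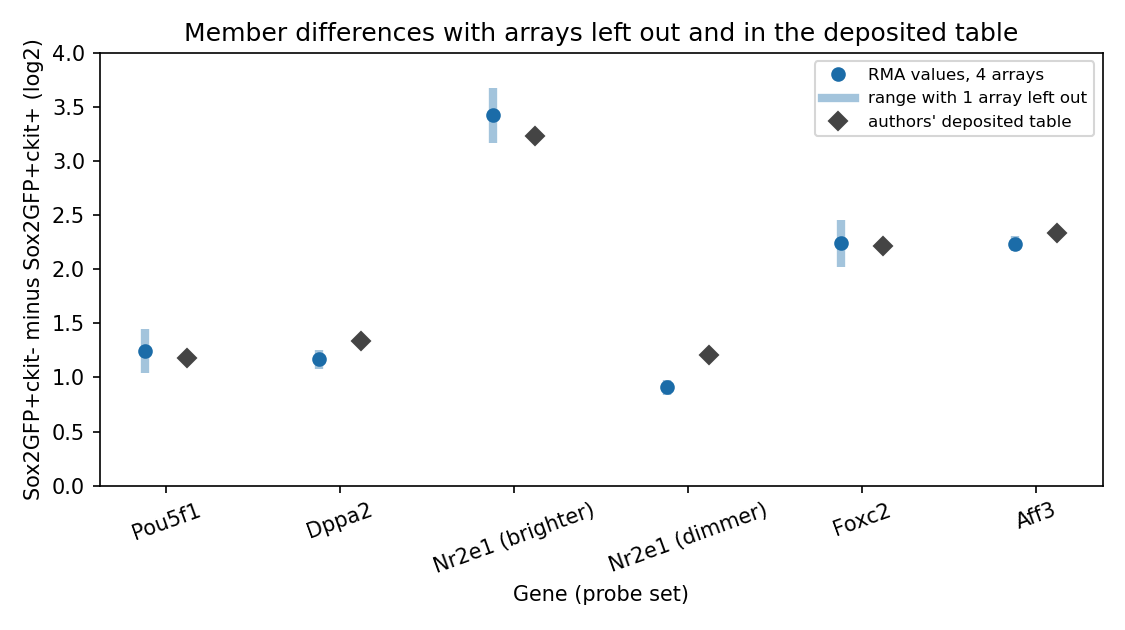
Log2 difference (ckit- minus ckit+, vertical axis) of each member probe set (horizontal axis) from the RMA values of all 4 arrays (circles), its range when each array was left out in turn (bars), and from the authors' deposited table (diamonds). The range for the brighter Nr2e1 probe set, 3.17 to 3.67, lies above those of all the others, and the ranges of Pou5f1 (1.04 to 1.45) and Dppa2 (1.08 to 1.26) overlap.

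The profiles over the 4 arrays were compared between members and with other named genes. Likeness was measured as the root mean square distance over the 4 arrays after each probe set's own mean was subtracted, on the log2 scale, with the brightest probe set for each gene, so it depends largely on the size of the difference between the populations. Pou5f1 and Dppa2 were 0.11 apart and Foxc2 and Aff3 0.20 apart, while Nr2e1 was at least 0.64 from every other member. Within ckit- cells, Foxc2 had the higher value in replicate 1. The other 5 of the 6 probe sets, 2 of them of Nr2e1, had it in replicate 2. The share of all probe sets with this order was not computed, so nothing is read from the count.

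Among the other named genes, all of which the authors had selected on the same arrays, Foxc2 was most like Fgd5, a gene of endothelium and blood stem cells, at a distance of 0.03. Fgd5 read 8.97 and 8.56 in ckit- cells, against 6.44 and 6.47 in ckit+ cells, and shared the higher value in ckit- replicate 1 with Foxc2. The GDNF receptor gene Ret (0.10) and the zinc finger gene Egr2 (0.14) came next and also had the higher ckit- value in replicate 1. The distance is taken over the same arrays, so picking by it favours a shared replicate order, and nothing is read from that order. Aff3 was most like T (0.07), the T-box gene brachyury that also marks undifferentiated spermatogonia. T read 5.97 and 5.94 in ckit- cells, against 3.86 and 3.76 in ckit+ cells, the lower values being under the quartile given above. Pygl (glycogen phosphorylase, 0.09) and Large2 (a glycosyltransferase, 0.13) followed. Pou5f1 was nearest to Dkk3, a secreted protein of the Dickkopf family (0.07), then Armcx4 (0.09) and Vwa2 (0.10). Dppa2 was nearest to Ccnjl, a cyclin-like gene (0.04), then Armcx4 (0.06) and Rasa3, a GTPase-activating protein (0.06). No named gene came close to the brighter Nr2e1 probe set, for which Fgd5, Ret and Gfra1 were the nearest at 0.62 each. Among all probe sets, named or not, 0 lay within 0.2 of it, against 17 for Foxc2, 17 for Aff3, 123 for Pou5f1 and 263 for Dppa2. The dimmer Nr2e1 probe set, with a difference of 0.91, was not compared in this way.

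Fgd5 and Plvap were the only 2 of 9 listed endothelial markers that could be named. Both had higher values in ckit- cells, a direction shared by 114 of the 218 named genes. Plvap, an endothelial membrane protein known also from undifferentiated spermatogonia, read 6.77 and 6.91 in ckit- cells, against 5.40 and 5.39 in ckit+ cells. Plvap had the higher ckit- value in replicate 2, and Foxc2 and Fgd5 in replicate 1, from which nothing is read. The summed level of both markers, most of it from Fgd5, was 9.25 and 8.96 in ckit- cells, against 7.01 and 7.03 in ckit+ cells (log2 of the linear sum). The other 7 endothelial markers, and all those listed for Sertoli, Leydig, peritubular myoid and Schwann cells and macrophages, were not analysed here, and the part of such cells in the difference of Foxc2 was not tested.

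The markers that could be named were set against the labels. Of 12 genes listed for undifferentiated spermatogonia, 8 were named, all 8 had higher values in ckit- cells and 7 passed limma's threshold. Among all named genes, selected by the authors on these arrays, 43 of the 114 higher in ckit- cells passed. All 8 also stand in the list of spermatogonial stem cell genes given below, so they are counted again there. Both lists were chosen with earlier results of these data known. The summed level of the 8 was 12.97 and 12.90 in ckit- cells, against 11.16 and 11.10 in ckit+ cells. Most of this sum came from Zbtb16, whose means were 12.30 in ckit- cells and 10.56 in ckit+ cells. Of 11 listed for differentiating spermatogonia, 3 were named (Kit, Stra8 and Dnmt3b), each of them higher in ckit+ cells by its mean, and 2 passed. That direction was shared by 104 of the 218 named genes, of which 70 passed in either direction. Among all probe sets, 0.115% were called higher in ckit+ cells. Kit, whose protein was used for the sort, averaged 6.83 ± 0.06 in ckit- cells and 9.65 ± 0.04 in ckit+ cells (SD, n = 2 each). The 3′ minus 5′ signal of the GAPDH control probe sets was 2.68 and 2.61 in ckit- cells, against 2.45 and 2.59 in ckit+ cells. For the beta-actin control probe sets it was -0.11 and -0.19 in ckit- cells, against 0.02 and -0.27 in ckit+ cells. The part of this signal in the member differences was not tested.

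Of 41 genes listed as regulators or markers of spermatogonial stem cells, a list that holds Foxc2 and Nr2e1, 15 were named. Plvap, also counted above among the endothelial markers, is one of them. The mean of each of the 15 was higher in ckit- cells. Their median log2 difference was 1.88, against 1.30 for the 114 named genes higher in ckit- cells. By limma 13 of the 15 passed, all but Lhx1 and Tspan8, against 43 of those 114 and 0.193% of all probe sets. The authors had selected every named gene on these arrays, and the list was chosen with earlier results of these data known. Neither the direction, the larger median nor the larger share that passed is therefore independent evidence. Foxc2 (2.24) and Aff3 (2.24) lay beside Ret (2.24 ± 0.17), Egr2 (2.20 ± 0.22) and Gfra1 (2.18 ± 0.19), the co-receptor of Ret, with differences between these genes smaller than their SEs. Pou5f1 (1.25) and Dppa2 (1.17) lay beside the LIM homeobox gene Lhx1 (1.06 ± 0.27) and the adhesion gene Cdh1 (1.30 ± 0.16).

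**Figure D4:**
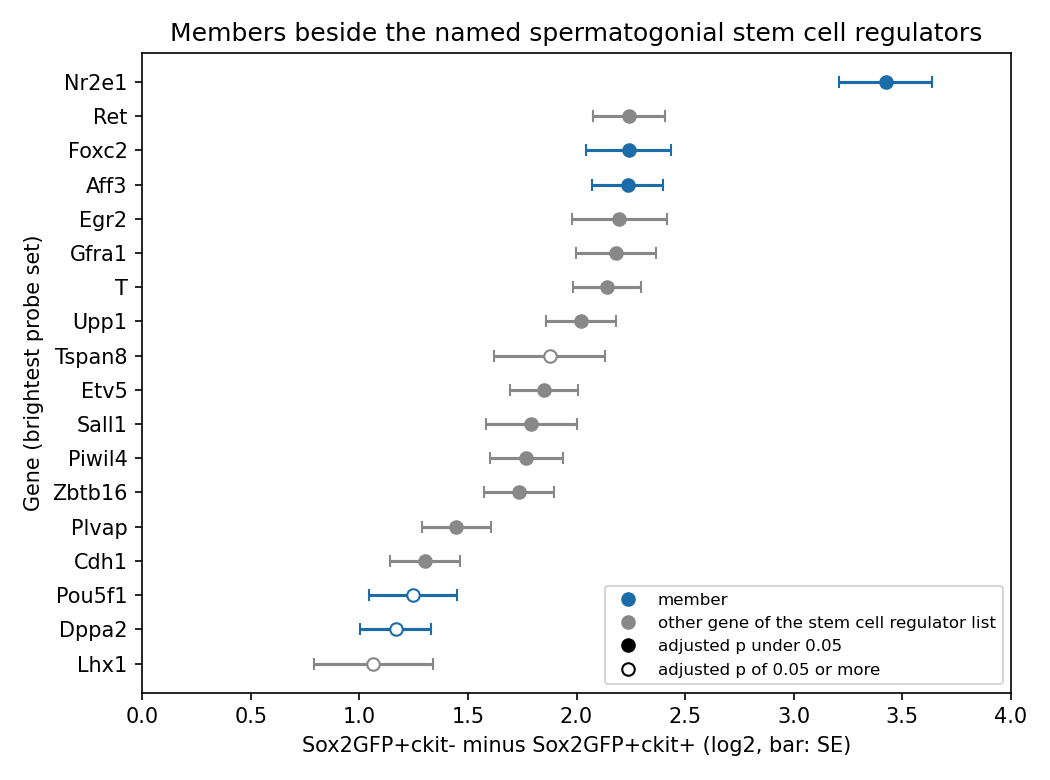
Log2 difference (ckit- minus ckit+, horizontal axis, bars are limma's SE) of the 15 named genes of the spermatogonial stem cell list with Aff3, Pou5f1 and Dppa2 added (vertical axis, brightest probe set). Filled points passed limma's threshold; Nr2e1 at 3.42 stands apart at the top, Foxc2 and Aff3 lie with Ret, Egr2 and Gfra1, and Pou5f1 and Dppa2 lie near the bottom.

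Of the 30 genes listed for the pluripotency network, Pou5f1 and Dppa2 were the only 2 named, and the other 28, Sox2 and Nanog among them, were not analysed here. Of 28 relatives of the members, 2 were named. Foxf1, a forkhead gene expressed in mesenchyme, averaged 7.28 ± 0.10 in ckit- cells and 6.02 ± 0.16 in ckit+ cells (SD, n = 2 each). Its difference of 1.26 ± 0.17 did not pass limma's threshold. Pou4f1, a POU-domain gene of sensory neurons, averaged 2.96 ± 0.03 in ckit- cells and 3.98 ± 0.17 in ckit+ cells, under the lower quartile in both. Of 18 genes listed as targets or partners of the members, 0 were named, so the data used here say nothing of them.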

How the data were processed

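The first table used holds log2 values of 45101 probe sets on 4 arrays, which the authors made with RMA, per the submitters' processing notes (no version or array model is stated). The 64 control probe sets were left out of tests. The second table holds a comparison of 374 probe sets that the authors computed and deposited: group means with standard errors on the log2 scale, the linear ratio of those means, p-values and adjusted p-values. Per the file headers, the authors obtained the p-values by t-test on log-transformed data, adjusted them for 605 tests after Benjamini and Hochberg, and kept ratios of 2-fold and up. The largest adjusted p-value listed from that t-test was 0.05. How these values were normalized is not stated.

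Of the 374, 248 probe sets (218 genes) were named: 61 by accession, 88 by symbol and 99 by full name, matched by hand to a RefSeq gene table (GRCm38.p6). The brightest probe set stood for a gene with several. Differences are ckit- minus ckit+, fitted with limma 3.58.1 (R 4.3.3, lmFit and eBayes, two-sided, adjusted p under 0.05 over 45037 probe sets, no covariates), checked on simulated data. The p-values measure the spread between 2 pools a group, and the number of arrays limits the precision. Array medians lay between 6.39 and 6.42. Quantile normalization in RMA would hide a shift of all transcripts.

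The members and lists were chosen with earlier results of these data known. The genes named are the members, the 3 named genes with the nearest profile to each, and the named genes of the lists. Promoters are RefSeq's (GRCm38.p6), with entries for 3 of the 5 members. Alternatives were other normalizations, a filter on dim probe sets, an intensity trend, a replicate block, the methods' t-test and each array left out.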

Additional observations from a re-analysis of the deposited data

How the results depend on the processing

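Limma called 139 of 45037 probe sets. With an intensity trend it called 419 and with the replicate number as a block (replicate block) 554, each including all 139. The methods' t-test, run on the RMA values and adjusted over all 45037 probe sets (Benjamini-Hochberg), called 1 (5346 at an unadjusted p under 0.05). The authors adjusted theirs for fewer tests, on values whose normalization is not stated, so this count does not test their table. Of the 6 member probe sets 4 passed with the trend (Dppa2 added), 5 with the block (Pou5f1 and Dppa2 added) and 0 with the methods' t-test. The block is only an alternative: deviations from the group means correlated at 0.26 between arrays of one number, with 2 arrays a group, and nothing in the labels ties equal numbers together. With any 1 array left out limma called 0 to 0 probe sets, members included (4513 to 6422 at an unadjusted p under 0.05); fewer arrays leave fewer degrees of freedom, and a population left with 1 array takes its spread from the other. Median centring, renewed quantile normalization and the filter on dim probe sets gave 142, 133 and 99 calls, and Nr2e1 (brighter probe set), Foxc2 and Aff3 passed in each of these 3. The filter removed Dppa2 and the dimmer Nr2e1 probe set. No member difference changed sign under any alternative, which the lack of overlap between the groups' arrays fixes where arrays are left out: those ranges were 3.17 to 3.67 and 0.83 to 0.98 for Nr2e1, 2.02 to 2.46 for Foxc2, 2.17 to 2.31 for Aff3, 1.04 to 1.45 for Pou5f1 and 1.08 to 1.26 for Dppa2.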

Other observations

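Nr6a1, the germ cell nuclear factor, is a nuclear receptor known to repress Pou5f1 in differentiating mouse embryonic stem cells, and it was picked here after its values were seen. It read 7.04 and 6.90 in ckit- cells, against 8.10 and 8.10 in ckit+ cells. Its difference of -1.13 ± 0.16 (ckit- minus ckit+, log2, limma's SE) ran opposite to that of Pou5f1, 1.25 ± 0.20, and did not pass limma's threshold. Both genes stand in the table the authors selected on these arrays, and a relation between them was not tested.

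Foxf1 was the only named gene among the 10 nearest protein-coding genes of any member in RefSeq's gene order (5 on each side). It lies near Foxc2, with Mthfsd between them, and both had higher values in ckit- cells. The nearest neighbours of Dppa2 are Dppa4, its partner, and Morc1, neither of which was analysed here.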
